A study of Mus musculus with 9 samples.

Results

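Genes that write, read, and remove DNA methylation, the catalytic subunits of the Polycomb repressive complex 2 (PRC2), and Scml4 were followed across control MC3T3-E1 osteoblasts, SB216763-treated MC3T3-E1 osteoblasts, and mouse pulmonary endothelial cells (ECs). The 10 genes, Dnmt1, Dnmt3a, Dnmt3b, Uhrf1, Tet1, Tet2, Tet3, Ezh1, Ezh2, and Scml4, were 10 of 50686 genes in the deposited table, and all 10 were among the 15531 genes that passed the filter on low counts. 9 of them were taken for their function, with earlier results of these data known. Scml4 was chosen by its measured levels, since its increase after SB216763 was among the largest of all genes, so its values are given as a description without a test.

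RNA-Seq was performed on 3 libraries in each of the 3 groups. MC3T3-E1 is a cell line of mouse osteoblasts. SB216763 is a compound that inhibits the kinase GSK3 and was given at 10 μM over 14 days to the treated osteoblasts, while the sample labels mark the other osteoblasts as control and the ECs, which were isolated by FACS, as without treatment. The protocol text of the labels names SB216763 for every sample, so the groups rest on the titles and treatment entries. The sources used here give no genotype, strain, or age for the mice, do not say for how long the control osteoblasts were cultured, and do not say whether the libraries of a group came from separate cultures or animals. Treatment and time in culture can therefore not be told apart, and p-values measure only the spread between these libraries, which may be technical. All osteoblasts are of 1 cell line.

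DNA methylation is copied at each cell division. Uhrf1 binds the hemimethylated DNA behind the replication fork and brings in Dnmt1, the maintenance methyltransferase. Dnmt3a and Dnmt3b add methyl groups to unmethylated DNA, and the Tet enzymes oxidize methylcytosine, a step toward its removal. PRC2 methylates histone H3 at silenced genes through Ezh2, which is abundant in dividing cells, or Ezh1, which is known for its presence in cells that have left the cell cycle. PRC1 compacts such chromatin and ubiquitinates histones. Scml4 encodes a relative of the Scm proteins, which belong to the Polycomb group.

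Depth ran from 30990107 to 68946333 counts per library, and 3 counts were taken as the smallest level a library can show. In CPM, which are counts scaled to the size of the library, that level lay between 0.0435 and 0.0968. Levels below are TMM-normalized CPM, given as mean ± SD with n = 3. Fold changes and p-values were obtained with the quasi-likelihood test of edgeR, the p-values were adjusted over all 15531 genes by the Benjamini-Hochberg method (FDR), and a gene was taken to have passed the test at an FDR under 0.01. The fold threshold was in addition a log2 fold change of at least 2 in either direction. The labels were checked by summed marker levels. The 8 osteoblast markers summed to between 43921 and 59349 CPM in control osteoblasts, between 8134 and 8407 CPM after SB216763, and between 45.1 and 64.5 CPM in ECs. Col1a1 and Col1a2 made up most of that sum, and of the 8 markers Dmp1, a gene of osteocytes, rose after SB216763 (0.185 to 66.4 CPM, log2 fold change 8.53, FDR = 1.24e-17) while the other 7 fell. The 10 endothelial markers summed to between 7018 and 7177 CPM in ECs, and to at most 4.10 CPM in either osteoblast group. Control replicate 2 lay lower for long genes than the other libraries. Among genes with more than 7125 exonic bases its median deviation was -0.086 on the log2 scale, against 0.078 for genes with fewer than 1936. Of the 10 genes, 7 are in the long class.

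Sequences upstream of a RefSeq start of 4 genes are printed first, since their transcripts changed in opposite directions. Uhrf1, Ezh2, and Dnmt1 fell after SB216763, and Ezh1 rose. The RefSeq windows used here cover starts of 9 of the 10 genes. They hold none for Scml4, which is named only. The stretches lie upstream of the RefSeq starts on GRCm38.p6, are written 5′ to 3′ on the strand of the gene, and were trimmed to bases outside every exon of the gene. Of the 2 starts of Uhrf1 and the 3 of Dnmt1, the one whose untrimmed window holds an E2F site is shown. The stretches of Uhrf1, Ezh2, and Dnmt1 lie inside the annotated span of the gene, so other transcripts of these genes begin further upstream. Only the Ezh1 stretch lies outside the span of its gene. Capitals mark 2 kinds of motif on either strand, the E2F sites TTTCCCGC, TTTGGCGC, TTTCGCGC, and TTTGCCGC, and the CCAAT box, which reads ATTGG on the opposite strand. Uhrf1 is shown at chr17:56304063-56304312 on the plus strand, Ezh2 at chr6:47595059-47595183, Dnmt1 at chr9:20952624-20952707, and Ezh1 at chr11:101226464-101226713, the last 3 on the minus strand.
Uhrf1: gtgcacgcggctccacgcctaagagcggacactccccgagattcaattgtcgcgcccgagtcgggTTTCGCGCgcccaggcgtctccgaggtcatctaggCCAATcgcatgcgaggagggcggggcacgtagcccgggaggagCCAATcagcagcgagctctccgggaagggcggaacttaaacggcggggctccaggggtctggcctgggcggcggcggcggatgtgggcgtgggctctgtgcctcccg
Ezh2: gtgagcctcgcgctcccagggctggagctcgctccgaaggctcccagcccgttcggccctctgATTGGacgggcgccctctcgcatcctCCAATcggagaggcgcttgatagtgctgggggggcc
Dnmt1: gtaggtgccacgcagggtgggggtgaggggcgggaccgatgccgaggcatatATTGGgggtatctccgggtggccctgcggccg
Ezh1: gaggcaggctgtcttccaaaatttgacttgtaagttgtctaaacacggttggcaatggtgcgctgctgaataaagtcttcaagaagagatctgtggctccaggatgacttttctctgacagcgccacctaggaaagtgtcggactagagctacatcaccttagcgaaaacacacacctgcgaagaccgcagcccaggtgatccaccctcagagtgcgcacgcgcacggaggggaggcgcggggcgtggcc
The Uhrf1 stretch holds an E2F site, TTTCGCGC, 185 bases before the start, and CCAAT boxes at 150 and 107 bases. The Ezh2 stretch holds CCAAT boxes at 90 and 64 bases, and that at 11 bases was trimmed away. The Dnmt1 stretch holds 1 CCAAT box at 32 bases. The E2F site of that Dnmt1 start and its CCAAT boxes at 236 and 233 bases lie in the part not shown. The Ezh1 stretch holds neither motif. Across all 32851 RefSeq windows of 250 bases, 1.86% hold at least 1 of the E2F sites and 33.8% hold a CCAAT box. These shares are for untrimmed windows and not for stretches shortened by trimming. The starts shown for Uhrf1 and Dnmt1 were picked by their E2F site, which the windows of their other starts lack, so the share is no comparison for them. Another start of Dnmt1 has 4 CCAAT boxes in its window. In the untrimmed windows of the 9 genes, E2F sites were found only at Uhrf1 and Dnmt1, and CCAAT boxes only at Dnmt1, Uhrf1, Ezh2, and Tet3. The TCF/LEF motifs CTTTGAT and CTTTGAA, present in 7.48% of all windows on either strand, were found at 1 of the 3 starts of Dnmt1 and at no start of the other 8 genes. These matches are descriptions of sequence and not sites of binding.

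SB216763 treatment was compared with control to ask how these regulators differed in osteoblasts that had received the inhibitor. The maintenance genes Uhrf1 and Dnmt1, the de novo enzyme Dnmt3b, Ezh2, and Tet1 fell. Ezh1 and Tet2 rose. Dnmt3a and Tet3 did not pass the test. Thus 5 of the 9 genes taken for their function were lower and 2 were higher, where 32.0% of all genes tested were lower and 32.9% were higher, 64.9% in all. Only Uhrf1 also passed the fold threshold, where 5.84% of all genes passed it downward and 9.65% in either direction. The treated and control libraries did not overlap for 7 of the 9 genes, and for 73.2% of all genes tested.

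**Figure D1:**
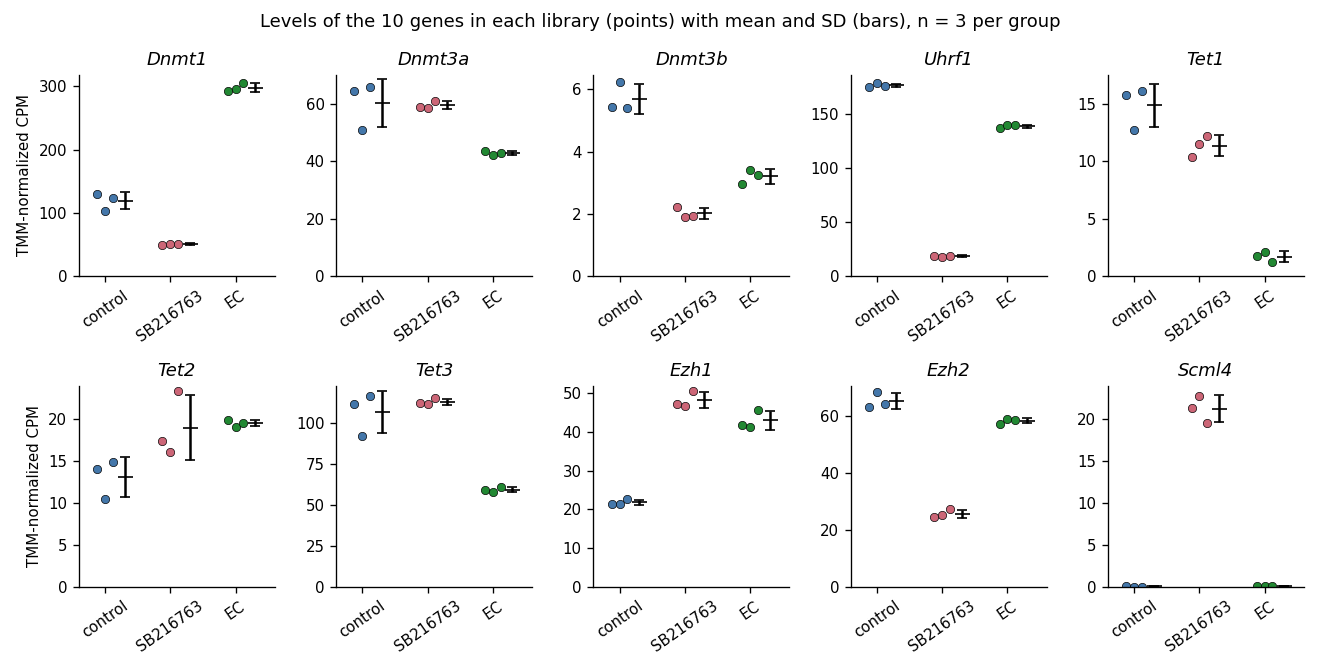
Levels of the 10 genes in TMM-normalized CPM (linear axes from 0, with a scale of its own in each panel) by group, with 1 point per library and the mean ± SD of 3 libraries as bars. Uhrf1 lies between 17.5 and 19.0 CPM after SB216763 and between 137 and 178 CPM in every other library, and Scml4 is near 0 outside the treated osteoblasts.

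Uhrf1 (chromosome 17, 56303321 to 56323486, plus strand) had 175.1, 178.4, and 176.3 CPM in the control libraries, 19.0, 17.5, and 19.0 CPM after SB216763, and 137.0, 139.5, and 139.6 CPM in ECs. The treated libraries were far below all others. The level was 9.57-fold lower than in controls (log2 fold change -3.26, SE 0.05, FDR = 2.06e-17) and 7.52-fold lower than in ECs (log2 fold change -2.91, SE 0.05, FDR = 1.01e-17). ECs were themselves lower than controls by a smaller amount (log2 fold change -0.35, SE 0.04, FDR = 1.17e-06).

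Dnmt1 (chromosome 9, 20907209 to 20959888, minus strand), whose protein depends on Uhrf1 to reach replicated DNA, had 129.2, 103.6, and 124.2 CPM in controls. After SB216763 it had 48.6, 51.1, and 51.4 CPM, and in ECs 292.1, 296.6, and 305.6 CPM. The 3 groups did not overlap. Dnmt1 was 2.36-fold lower after SB216763 than in controls (log2 fold change -1.24, SE 0.07, FDR = 1.12e-10), whereas ECs were 2.51-fold above controls (log2 fold change 1.33, SE 0.07, FDR = 1.74e-11). Treated osteoblasts were thus 5.92-fold below ECs (log2 fold change -2.56, SE 0.07, FDR = 5.61e-15). Dnmt1 and Uhrf1 fell together after SB216763 but moved apart in ECs, where Dnmt1 was higher and Uhrf1 lower than in controls.

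The de novo enzymes differed from each other. Dnmt3b (chromosome 2, 153649450 to 153687730, plus strand) had 5.42, 6.24, and 5.38 CPM in controls, 2.21, 1.90, and 1.93 CPM after SB216763, and 2.96, 3.41, and 3.24 CPM in ECs. Every treated library was below every EC library, and every EC library below every control. The log2 fold change after SB216763 was -1.50 (SE 0.11, FDR = 6.05e-09), and that of ECs over controls was -0.84 (SE 0.10, FDR = 1.64e-06). These values rest on 71 to 344 counts per library. Dnmt3a (chromosome 12, 3806007 to 3914443, plus strand) had 64.5, 50.7, and 65.9 CPM in controls and 59.0, 58.6, and 61.1 CPM after SB216763. The groups overlapped, the lowest value was that of control replicate 2, and the log2 fold change was -0.01 (SE 0.07, FDR = 0.877). In ECs Dnmt3a had 43.6, 42.1, and 42.9 CPM, below every control (log2 fold change -0.49, SE 0.08, FDR = 1.85e-05).

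The ratio of Dnmt3a to Dnmt3b counts within a library needs no scaling between libraries. Its log2 value was 3.40 ± 0.33 in controls, 4.89 ± 0.13 after SB216763, and 3.74 ± 0.13 in ECs (SD, n = 3). Per base of exon, Dnmt3a was between 2.49 and 3.75 times Dnmt3b in controls and between 8.20 and 9.70 times after SB216763. These per-base values depend on the length taken for each gene, whereas the difference between groups does not. The treated and control libraries did not overlap, with a difference of 1.49 in log2 ratio, which is 2.80-fold. A 2-sided exact permutation test gave p = 0.1, the smallest that 3 libraries against 3 allow, also after adjustment over the 6 ratio comparisons.

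Each Tet gene had a pattern of its own over the groups. Tet1 (chromosome 10, 62804570 to 62908996, minus strand) had 15.8, 12.7, and 16.1 CPM in controls, 10.4, 11.5, and 12.2 CPM after SB216763, and 1.76, 2.10, and 1.23 CPM in ECs. The fall after SB216763 was 1.30-fold (log2 fold change -0.38, SE 0.11, FDR = 0.00477). It did not pass the test with scaling by library size only (FDR = 0.161), or without SB216763 replicate 1 (FDR = 0.0232), SB216763 replicate 2 (FDR = 0.0125), control replicate 1 (FDR = 0.0225), or control replicate 3 (FDR = 0.0164). ECs were 8.85-fold below controls (log2 fold change -3.14, SE 0.14, FDR = 5.41e-12), so Tet1 was the 1 gene of the 9 that passed the fold threshold in ECs, where 9.87% of all genes tested passed it downward and 13.5% upward, 23.4% in all.

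Tet2 (chromosome 3, 133463679 to 133545139, minus strand) had 14.0, 10.4, and 14.8 CPM in controls, 17.4, 16.0, and 23.3 CPM after SB216763, and 19.8, 19.1, and 19.5 CPM in ECs. Both other groups lay above every control library, with log2 fold changes of 0.55 (SE 0.13, FDR = 0.00134) after SB216763 and 0.59 (SE 0.13, FDR = 5.42e-04) in ECs. When ECs were left out of the fit, Tet2 narrowly missed the test (log2 fold change 0.53, FDR = 0.0119). The treated and EC libraries overlapped.

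Tet3 (chromosome 6, 83362373 to 83459084, minus strand) was at the highest CPM of the Tet genes in all 3 groups. It had 112.0, 92.2, and 116.6 CPM in controls, 112.2, 112.0, and 115.3 CPM after SB216763, and 59.4, 58.1, and 60.9 CPM in ECs. Controls and treated osteoblasts overlapped (log2 fold change 0.08, SE 0.07, FDR = 0.269), and with scaling by library size only the treated osteoblasts were higher (log2 fold change 0.29, FDR = 0.00125). ECs were lower than controls (log2 fold change -0.84, SE 0.07, FDR = 1.0e-08). For Dnmt1, Dnmt3a, and all 3 Tet genes the lowest control value was that of replicate 2, the library that lay lower for long genes. The part of that in these results was not tested.

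The PRC2 catalytic subunits moved in opposite directions. Ezh2 (chromosome 6, 47530139 to 47595341, minus strand) had 63.2, 68.5, and 64.3 CPM in controls, 24.5, 25.3, and 27.3 CPM after SB216763, and 57.2, 58.9, and 58.7 CPM in ECs. It was 2.54-fold lower after SB216763 than in controls (log2 fold change -1.35, SE 0.05, FDR = 1.04e-12) and 2.27-fold lower than in ECs (log2 fold change -1.18, SE 0.05, FDR = 2.56e-12). The difference of ECs from controls was small (log2 fold change -0.17, SE 0.05, FDR = 0.00477). It did not pass the test with DESeq2 (FDR = 0.0115), with scaling by library size only (log2 fold change -0.04, FDR = 0.46), or without EC replicate 1 (FDR = 0.0293), EC replicate 3 (FDR = 0.0101), or control replicate 2 (FDR = 0.0148).

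Ezh1 (chromosome 11, 101191115 to 101226463, minus strand) had 21.4, 21.4, and 22.6 CPM in controls, 47.1, 46.7, and 50.5 CPM after SB216763, and 41.8, 41.3, and 45.8 CPM in ECs. Every library of the other groups was above every control. Ezh1 was 2.21-fold higher after SB216763 (log2 fold change 1.15, SE 0.05, FDR = 1.36e-11) and 1.98-fold higher in ECs (log2 fold change 0.98, SE 0.05, FDR = 5.4e-11). Between treated osteoblasts and ECs the log2 difference was 0.16 (SE 0.05, FDR = 0.00804). That call was lost with DESeq2 (FDR = 0.0326) and without EC replicate 1 (FDR = 0.0531), EC replicate 2 (FDR = 0.0435), SB216763 replicate 1 (FDR = 0.0107), or SB216763 replicate 3 (FDR = 0.0287).

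Within a library, the log2 ratio of Ezh2 to Ezh1 counts was 1.58 ± 0.09 in controls, -0.91 ± 0.03 after SB216763, and 0.44 ± 0.08 in ECs (SD, n = 3). Per base of exon, Ezh2 was between 3.16 and 3.57 times Ezh1 in controls, between 1.43 and 1.59 times in ECs, and between 0.579 and 0.603 times in treated osteoblasts. These per-base values depend on the length taken for each gene. The order of the 2 subunits was turned around only in the treated libraries, also with the length of the longest transcript. The ratio was 5.61-fold lower after SB216763 than in controls, with no overlap between any 2 groups and p = 0.1 by a 2-sided exact permutation test, the smallest possible (0.1 adjusted over the 6 comparisons).

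**Figure D2:**
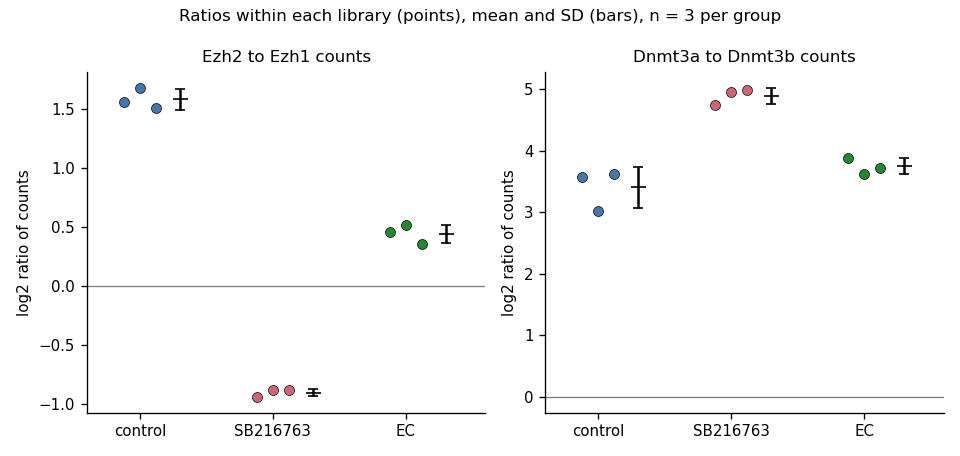
Log2 ratios of Ezh2 to Ezh1 counts (left) and of Dnmt3a to Dnmt3b counts (right) within each library, by group, with 1 point per library and the mean ± SD of 3 libraries as bars. The Ezh2 to Ezh1 ratio is below 0 only after SB216763 (-0.91 ± 0.03), where the Dnmt3a to Dnmt3b ratio is highest (4.89 ± 0.13).

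In ECs against controls, 3 of the 9 genes were higher (Dnmt1, Ezh1, Tet2) and 6 were lower, where 39.0% of all genes tested were higher and 37.9% lower, 76.9% in all. The libraries of the groups did not overlap for any of the 9 genes, and for 84.0% of all genes tested. In treated osteoblasts against ECs, 4 were higher (Tet1, Tet3, Dnmt3a, Ezh1), 4 were lower (Uhrf1, Dnmt1, Ezh2, Dnmt3b), and Tet2 did not pass the test (log2 fold change -0.04, SE 0.13, FDR = 0.756), where 38.3% of all genes were higher and 40.3% lower, 78.6% in all. Libraries did not overlap for 8 of the 9 genes, and for 85.4% of all genes tested. Past the fold threshold were Tet1 upward and Uhrf1 and Dnmt1 downward, where 25.3% of all genes passed it in either direction. The log2 fold change was 2.76 for Tet1, 0.93 for Tet3, 0.47 for Dnmt3a, and -0.67 for Dnmt3b. The 3 comparisons share libraries and are not independent of each other. Ezh1 and Tet2 were above controls in both treated osteoblasts and ECs, and Dnmt1 was below controls in the former and above them in the latter.

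**Figure D3:**
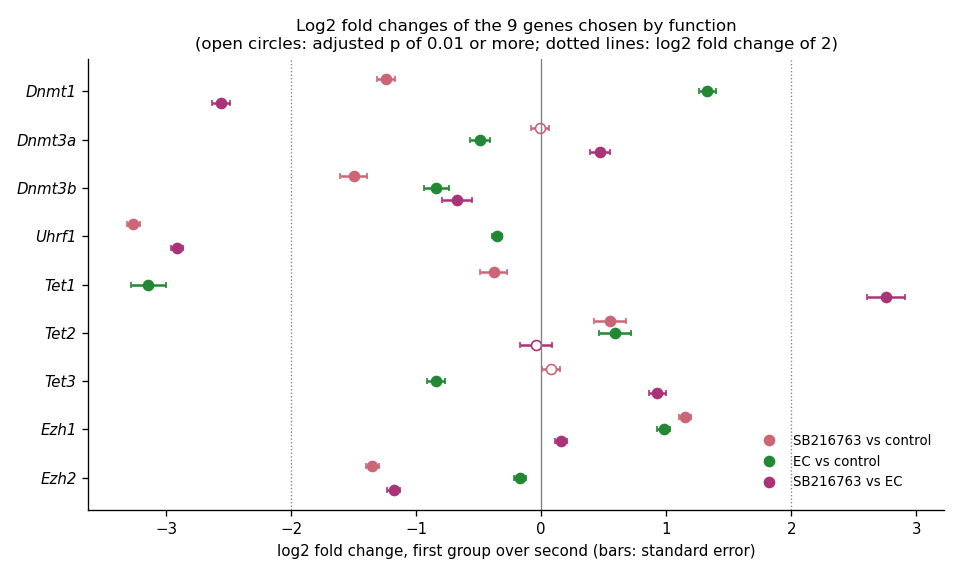
Log2 fold changes of the 9 genes taken for their function (points, with SE as bars) in the 3 comparisons, with open circles for an FDR of 0.01 or more and dotted lines at the fold threshold. Uhrf1 at -3.26 is the only gene past the dotted lines for SB216763 against control, and Tet1 at -3.14 the only one for ECs against control.

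Scml4 (chromosome 10, 42860370 to 42960780, plus strand) was counted 6, 2, and 1 times in controls, 746, 875, and 719 times after SB216763, and 5, 4, and 4 times in ECs. In CPM these were 0.0945, 0.0364, and 0.0347 in controls, 21.4, 22.8, and 19.6 after SB216763, and 0.115, 0.122, and 0.0927 in ECs. Only the treated osteoblasts held more than a few counts. The summed counts, scaled to the libraries, gave a ratio of treated to control of 348, with an exact 95% counting interval from 183 to 762.1, and a ratio of treated to ECs of 196 (114 to 368). The ratio of ECs to controls was 1.78 (0.703 to 4.71). These intervals cover counting error only and, since Scml4 was chosen by these levels, are no test. With a log2 fold change of 8.37, Scml4 was rank 5 of 4010 genes that were higher without overlap and had at least 10 CPM after treatment. The genes just above it were Cd200 (8.47) and Dmp1 (8.53), and the next below was Sema5a (7.81). Since 2 of the control libraries were under 3 counts of Scml4 and all 3 of these values lie within its counting interval, the exact rank is not fixed at this depth.

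The genes next to Scml4 on chromosome 10 did not share the size of its increase. Ostm1, upstream, went from 32.9 ± 1.63 CPM in controls to 106 ± 4.37 CPM after SB216763 (log2 fold change 1.68, SE 0.05, FDR = 4.62e-14), and Sobp, downstream on the other strand, went from 54.5 ± 2.22 to 146 ± 2.77 CPM (log2 fold change 1.42, SE 0.05, FDR = 3.74e-13). The gene 9030612E09Rik went from 1.21 ± 0.221 to 4.88 ± 0.478 CPM (log2 fold change 2.04, SE 0.17, FDR = 2.2e-08). Sec63, which encodes a protein of translocation into the endoplasmic reticulum and lies between Ostm1 and Scml4, had 180 CPM in controls and 184 CPM in treated osteoblasts (log2 fold change 0.03, SE 0.05, FDR = 0.585). The antisense gene Gm34006 overlaps Scml4 and had 0.413 CPM in controls, 1.50 after SB216763, and 0.0410 in ECs. The strand setting of the counting is not given in the sources used here, so reads of the overlapping pair cannot be told apart.

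Levels of different genes were compared per length of exon, as TPM (counts per base of exon, scaled to the same sum in every library). In controls Uhrf1 was highest of the 10 genes (122 TPM), followed by Dnmt1 (47.7), Ezh2 (28.6), and Tet3 (19.0), and no neighbours in this order overlapped. Dnmt3a (10.8) overlapped Ezh1 (8.61), Dnmt3b, Tet1, and Tet2 (3.24, 2.85, and 2.30) overlapped their neighbours, and Scml4 was last. After SB216763 Dnmt1 (24.2), Tet3 (24.0), and Ezh1 (22.9) led and overlapped, followed by Uhrf1 (15.4), Ezh2 (13.6), Dnmt3a (12.7), and Scml4 (9.76), above Tet2 (3.97), Tet1 (2.60), and Dnmt3b (1.40). In ECs Dnmt1 (148) and Uhrf1 (119) led and Scml4 was again last. With the length of the longest transcript in place of all exons, 5 of the 10 genes kept their rank in controls, 5 after SB216763, and all 10 in ECs, so the osteoblast orders depend on the length used. After SB216763 the longest transcript put Ezh1 first and Dnmt1 in rank 4.

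The falls of Uhrf1, Dnmt1, and Ezh2 stood beside a broad fall in genes of cell division. All 25 genes of a list of proliferation genes were lower after SB216763, 21 of them past the fold threshold. Of all genes tested, 32.0% were lower and 5.84% passed the fold threshold downward. The median log2 fold change of the list was -3.11, against 0.01 over all genes tested. Their summed level was between 2849 and 2868 CPM in controls, between 470.8 and 493 CPM after SB216763, and between 3440 and 3495 CPM in ECs. The 5 genes whose log2 CPM was most like that of Uhrf1 over the 9 libraries were Spag5, Ccnb1, Rnf144b, Lbr, and Kif20a, each with a Pearson r of at least 0.999. Spag5, Ccnb1, and Kif20a are known for roles in mitosis. Uhrf1 thus shared its low level in the treated libraries with mitotic genes, and in bulk RNA fewer dividing cells and less of these transcripts per cell cannot be told apart. The part of cell division in the falls of Uhrf1, Dnmt1, and Ezh2 was not tested.

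The genes most like Scml4 were Cirbp, Gm17251, Errfi1, Nrn1, and Rgl1, and those most like Ezh1 were Mroh1, Fam214a, Ftl1-ps1, Rgs14, and Gpi1, each over 9 libraries. Cirbp, a cold-inducible RNA-binding protein, had 36.4, 146.5, and 39.6 CPM in controls, treated osteoblasts, and ECs. With 3 groups of close replicates, such likeness rests mostly on the 3 group means. With a rank correlation, in which ties left no single set of 5, 0 of the 5 genes of Scml4, 1 of Uhrf1, and 2 of Ezh1 reached the value at the fifth rank, which 14, 17, and 28 genes reached or passed.

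The 12 markers of blood cells summed to between 8.89 and 10.5 CPM in treated osteoblasts, below the 27.1 to 28.6 CPM in controls and 58.2 to 60.7 CPM in ECs. In the osteoblasts most of it was Lyz2 (26.0 CPM in controls, 7.04 after SB216763), whereas Cd68, a macrophage marker, rose from 0.532 to 1.63 CPM (log2 fold change 1.63, FDR = 1.66e-06). In ECs most of the sum was Cd68 (46.6 CPM). Cd3e, Cd3g, Nkg7, and Itgam were among those at 3 counts or fewer in every library, and the 9 epithelial markers summed to less than 1 CPM in every library. The 7 mural markers summed to between 897.8 and 908.6 CPM after SB216763 against 3127 to 3278 CPM in controls. The lower sum was mostly that of Acta2 (2915 to 143.9 CPM). Cspg4 (33.2 to 3.14 CPM, FDR = 2.07e-10) and the barely counted Cnn1 (0.202 to 0.0377 CPM, FDR = 0.00812) also fell. Pdgfrb rose from 253.5 to 745.9 CPM (FDR = 5.08e-13) and Des from 8.02 to 9.72 CPM (FDR = 0.00497). The 6 fibroblast markers summed to between 853.7 and 923 CPM after SB216763 against 5148 to 5911 CPM in controls. Most of that was Col3a1 (5198 to 532.1 CPM), and Dcn also fell (263.9 to 211.4 CPM, FDR = 0.000247). Lum rose from 53.2 to 87.9 CPM (FDR = 1.49e-07) and Pdgfra from 33.3 to 67.0 CPM (FDR = 1.73e-11). In ECs the mural sum was at most 25.5 CPM and the fibroblast sum at most 301 CPM. Most of that fibroblast sum was Col13a1, at 271.6 CPM in ECs against 0.160 CPM in controls and 0.0720 CPM after SB216763. Pdgfra, Col3a1, Dcn, and Lum were at 18.2, 6.24, 0.301, and 0.102 CPM in ECs.

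The other genes of these pathways were described by lists of 84 genes, of which 78 passed the filter. After SB216763, 27 were higher, 29 were lower, and 22 did not pass the test, beside the 32.9% and 32.0% of all genes tested that were higher and lower. Past the fold threshold were 1 upward and 5 downward, where 3.81% and 5.84% of all genes tested passed it. The median log2 fold change of the 78 genes was 0.00, beside 0.01 over all genes.

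**Figure D4:**
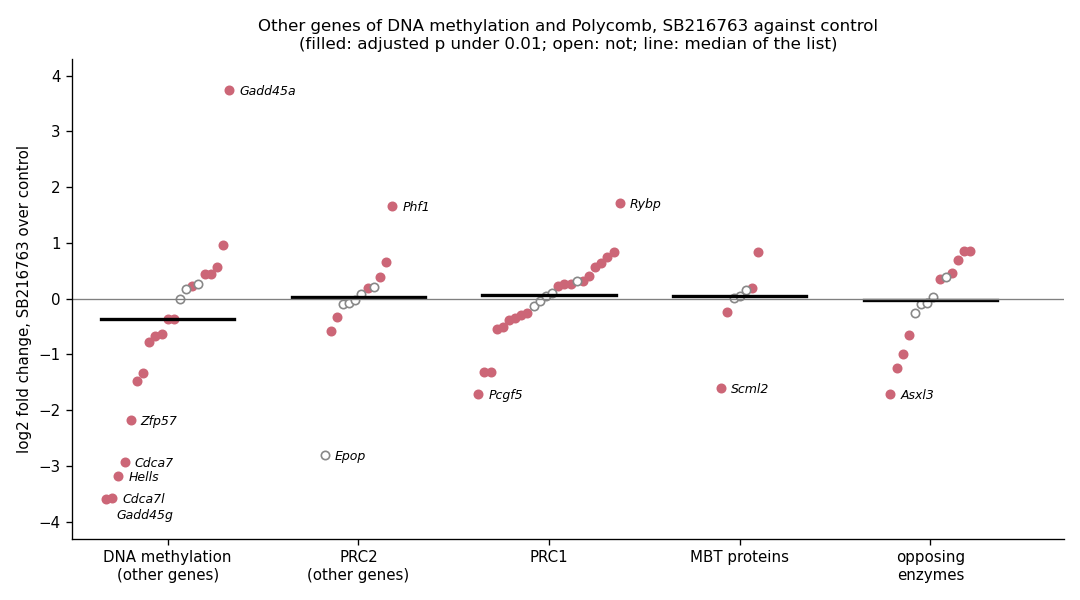
Log2 fold changes after SB216763 (vertical axis) of the genes in 5 lists, other than the 10 genes followed here, with filled points for an FDR under 0.01, open points for the rest, and a line at the median of each list. The 6 genes past a log2 fold change of 2 that passed the test all belong to DNA methylation, and Epop, whose mean is at most 0.0900 CPM in both osteoblast groups, did not pass.

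Among the DNA methylation genes, 12 of 21 tested were lower and 6 higher, with a median log2 fold change of -0.37 (32.0% of all genes were lower and 32.9% higher). Hells, a chromatin remodeler needed for DNA methylation, fell from 82.3 ± 1.62 to 9.18 ± 0.12 CPM, 8.97-fold (log2 fold change -3.17, SE 0.06, FDR = 3.6e-16). Its partner Cdca7 fell from 59.4 ± 2.89 to 7.85 ± 0.558 CPM (log2 fold change -2.92, SE 0.06, FDR = 5.72e-16), and the related Cdca7l fell from 9.97 to 0.834 CPM. Zfp57, which keeps methylation at imprinted regions, fell from 7.44 to 1.63 CPM. In ECs Zfp57 and Cdca7l were instead above controls, at 40.9 and 43.8 CPM.

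The Gadd45 genes, stress-response genes that have been linked to DNA demethylation, moved both ways. Gadd45a rose from 7.21 ± 0.826 to 94.7 ± 4.98 CPM, 13.4-fold (log2 fold change 3.74, SE 0.07, FDR = 1.86e-16), while Gadd45g fell from 81.6 ± 3.13 to 6.70 ± 0.615 CPM, 12.2-fold (log2 fold change -3.60, SE 0.06, FDR = 7.99e-17). Gadd45b fell with a log2 fold change of -1.48, and Tdg, the glycosylase that excises the oxidized bases made by Tet enzymes, with one of -1.33. Among proteins that bind methylated DNA, Zbtb4 (0.97) and Mbd1 (0.44) rose on the log2 scale, while Mbd2 (-0.36) and Mbd3 (-0.37) fell.

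Of 12 other PRC2 genes tested, 4 were higher, 2 lower (1 with scaling by library size only), and 6 did not pass, with a median log2 fold change of 0.03. Of all genes tested, 32.9% were higher and 32.0% lower. The core subunits moved little. Eed went from 31.4 to 35.7 CPM (log2 fold change 0.19, FDR = 0.00286) and Suz12 from 103 to 83.0 CPM (log2 fold change -0.32, FDR = 5.69e-05), while Rbbp4 (-0.07, FDR = 0.276) and Rbbp7 (-0.10, FDR = 0.0584) did not pass the test. Among the accessory subunits, Phf1 rose from 23.6 ± 1.04 to 74.7 ± 1.58 CPM, 3.15-fold (log2 fold change 1.66, SE 0.05, FDR = 1.89e-14), and Lcor (0.66) and Mtf2 (0.38) also rose, whereas Aebp2 (-0.58) fell. Phf19 was at 0.342 CPM in controls and 0.408 CPM after SB216763, and at 30.0 CPM in ECs (log2 fold change of ECs over controls 6.40, SE 0.11, FDR = 1.55e-17).

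Of 24 PRC1 genes, 10 were higher and 9 lower, beside 32.9% and 32.0% of all genes. Rybp, a subunit of the variant forms of PRC1, rose from 62.7 ± 3.91 to 205.3 ± 8.30 CPM (log2 fold change 1.71, SE 0.05, FDR = 1.17e-13), and Pcgf2 (0.84), Phc2 (0.74), and Cbx6 (0.64) rose. Pcgf5 (-1.70), its partner Auts2 (-1.31), and Cbx2 (-1.31) fell. Of the catalytic subunits, Rnf2 rose (0.40, FDR = 3.91e-05) and Ring1 did not pass the test (0.11, FDR = 0.0556).

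Of 7 genes tested from the MBT family, to which the relatives of Scml4 belong, 2 were higher (L3mbtl3, 0.83, and Sfmbt1, 0.20) and 2 were lower, beside 32.9% and 32.0% of all genes tested. Scml2 fell from 5.81 ± 0.349 to 1.92 ± 0.105 CPM (log2 fold change -1.60, SE 0.12, FDR = 8.95e-09) and Scmh1 from 33.3 to 28.4 CPM (log2 fold change -0.23, SE 0.05, FDR = 9.45e-04). The count of 2 higher was 1 with no filter and without SB216763 replicate 1, control replicate 2, or control replicate 3, and 5 with scaling by library size only, which also left 1 lower in place of 2. Scml4 and Scml2 thus moved in opposite directions after SB216763. In ECs Scml2 lay between 0.792 and 1.17 CPM, while Scml4 was near the smallest level a library can show, with a mean of 0.110 CPM.

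Of 14 enzymes and partners that oppose Polycomb, 5 were higher and 4 lower, beside 32.9% and 32.0% of all genes tested. Kmt2a (0.85) and Kmt2c (0.70), methyltransferases of active chromatin, and the histone deubiquitinase Mysm1 (0.85) rose, while Nsd2 (-1.24), Usp16 (-0.65), and Asxl3 (-1.70) fell. The demethylases that remove the PRC2 mark, Kdm6a (0.03, FDR = 0.547) and Kdm6b (-0.08, FDR = 0.383), did not pass the test after SB216763. In ECs Kdm6a was higher than in controls (0.68, FDR = 1.81e-09) and Kdm6b lower (-0.89, FDR = 3.04e-08).

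Of the same 78 genes, 37 were higher and 28 lower in ECs than in controls, where 39.0% and 37.9% of all genes were. Past the fold threshold were 5 and 4, against 13.5% and 9.87% of all genes. Of the 78, 27 were higher and 38 lower in treated osteoblasts than in ECs (38.3% and 40.3% of all genes), with 6 and 10 past the fold threshold. In that last comparison 10.3% of all genes passed the fold threshold upward and 15.0% downward, 25.3% in all.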

How the data were processed

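RNA-Seq counts of 9 libraries were analyzed, 3 in each of 3 groups taken from the sample titles. The authors aligned and counted the reads with STAR, version 2.5.3a on GRCm38 according to the submitters' processing notes, and deposited raw counts of 50686 genes. Their annotation and strand setting are not given in the sources used here. Every column matched a sample. Symbols and positions were found for 50376 genes in GENCODE mouse release 21, and TPM used the summed exon length from it.

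The members and the gene lists were chosen with earlier results of these data known. Counts were tested in R 4.3.3 with edgeR 4.0.16 (filterByExpr by group, TMM, quasi-likelihood fit of all 9 libraries, 15531 genes, Benjamini-Hochberg adjustment, FDR under 0.01). Log2 fold changes used a prior count of 0.125 and log2 CPM a prior count of 2. The SE of a log2 fold change was derived from the test, as its absolute value over the square root of the F statistic. The biological coefficient of variation was 0.0554. On simulated counts of 15011 genes for SB216763 against control, the test recovered 98 of 100 genes set to a log2 change of 1 and all 100 set to 3, with 2 false calls. Those counts held a far smaller share of changed genes than the 64.9% called for SB216763 against control in the data. The rate of false calls at that larger share was not tested. Ratios within libraries were compared by exact permutation tests.

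The rule for named genes took the 10 members, from each pathway list the genes past the fold threshold after SB216763 and the 2 that changed most in each direction, Eed, Suz12, Rbbp4, and Rbbp7, the 5 genes most like Scml4, Uhrf1, and Ezh1, the neighbours of Scml4, and the gene ranked after it. The other genes of the lists that are named, marker genes included, with Cd200 and Gm34006, were chosen after their values were seen. Same-numbered libraries did not deviate together, so the replicate number was left out of the main fit. Alternatives were DESeq2 1.42.0, limma-voom in limma 3.58.1, other scaling, filters, and thresholds, fits of only the groups compared, a replicate block, and leaving out each library. Promoter windows came from RefSeq (GRCm38.p6), 250 bases before each start. Protein sequences were not used here.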

Additional observations from a re-analysis of the deposited data

How the results depend on the processing

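Of 456 alternatives to the counts of genes past a threshold, 446 stayed within 1.5 times the count reported. That band is wide. With scaling by library size only, 38 pathway genes were higher after SB216763 in place of 27, and 24 were lower in place of 29. Of the 9 genes, 3 were then higher in place of 2, and 4 lower in place of 5. With a log2 fold change of at least 1 as threshold, the 9 genes gave 1 higher and 4 lower after SB216763 (in place of 0 and 1) and 1 higher in ECs than in controls (0), and the pathway genes gave 3 higher and 14 lower after SB216763, 16 and 11 in ECs against controls, and 12 and 20 in treated osteoblasts against ECs. The share of all genes tested past that lower threshold is not given here, so these counts show only the dependence on the threshold. Leaving ECs out of the fit left 1 of the 9 genes higher after SB216763 in place of 2, since Tet2 missed the threshold. Of 975 alternatives for single genes and lists, 946 kept their call, 16 lost it, 1 gained it, 12 moved a count, and 0 reversed. The lost calls belonged to Tet1 and Tet2 after SB216763, Ezh2 in ECs against controls, and Ezh1 in treated osteoblasts against ECs, as given with each gene. Their causes were not tested. Scaling by library size only moved the median log2 fold change of all genes from 0.01 to 0.22 after SB216763 and to 0.13 in ECs against controls.

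Same-numbered control and SB216763 libraries had correlations of 0.00286, 0.123, and 0.0810 between their deviations from the group means, and those with ECs lay between -0.0392 and 0.0337, so the numbers were not taken as pairs. With the replicate number as a block, 2 of the 9 genes were higher and 5 lower after SB216763, and 29 pathway genes were higher and 30 lower. Dnmt3b, with 71 to 344 counts per library, and Scml4 in controls and ECs are limited by depth.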
